A study of Mus musculus with 27 samples.

Results

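Epiblastoids are spheres of epiblast-like cells that mouse embryonic stem cells (mESCs) form in 3-dimensional culture, here followed for up to 4 days. Their polarity is described as lost after day 3, and the day 4 cultures as irregular colonies. The change from day 3 to day 4 was read from their bulk RNA-seq, with 1 library per day, as the log2 ratio of FPKM + 1. FPKM counts sequenced fragments relative to transcript length and to all mapped fragments of a library. Of 23604 genes in the table, the 11357 that reached 1 FPKM on day 3 or day 4 were compared, and day 2 served as a second reference. The limit left in AF357425, at 1.00 FPKM on day 3, and left out Zfp11, at 0.999.

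The Epiblastoids of all 3 days were wild type. According to the methods they came from CMTI-1 mESCs grown as single cells in Matrigel, and the medium was N2B27 with 1% KSR (a serum replacement), to which bFgf2 (12 ng/ml) and Activin A (20 ng/ml) were added. The other bulk libraries included 2 each of mESCs, EpiLCs (epiblast-like cells) and EpiSCs (stem cells of the later, primed epiblast). The rest were of formative pluripotent stem cells (fPSCs), 8 made from mESCs and 2 made from epiblasts. Of the 8, those of the lines 46C, BVSC and ROSAmTmG (1 library each) came from mESCs of other backgrounds than CMTI-1. These lines carry reporter genes, in this order Sox1-GFP, Blimp1 with Stella, and mT/mG. The fPSCs are Epiblastoids kept as a line with XAV939, an inhibitor of Wnt/β-catenin signaling. EpiSCs were also grown with XAV939 (5 μM), with 15% KSR and the same bFgf2 and Activin A. EpiLCs had the same bFgf2, Activin A and KSR as the Epiblastoids. Promoter chromatin was available for fPSCs at passage 10 and for no Epiblastoid.

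The epiblast is the pluripotent sheet of the embryo that gives rise to all tissues of the body. At gastrulation, Wnt, Nodal and BMP signals start the primitive streak on its posterior side. Cells that pass through the streak give up epithelial contacts and become mesoderm or definitive endoderm, while cells that stay outside the streak become ectoderm.

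Each day was 1 library, so no ratio between days has a replicate check and no test was made. A gene is called higher or lower on day 4 if its log2 ratio was at least 1 or at most -1. On day 4, 891 of the compared genes were higher than on day 3 (7.85%) and 934 were lower (8.22%), and the median ratio was -0.14. Against day 2, 986 were higher (8.68%) and 641 lower (5.64%). Both ratios use the same day 4 library, and 670 genes (5.90%) were above both earlier days while 385 (3.39%) were below both. For scale, the 2 libraries of 1 group differed by at least 1 for 3.98% of genes in mESCs, 4.44% in EpiLCs and 1.62% in EpiSCs.

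The day 3 library stood apart in some RNAs. Histone genes, whose main transcripts carry no poly(A) tail, summed to 44.5 FPKM on day 2, 2142 on day 3 and 62.9 on day 4. Among all compared genes 136 were high on day 3 alone, above day 2 and day 4 by at least 1, and 60 were low on day 3 alone. Igfbp2, which binds insulin-like growth factors, is 1 of the former, at 16.7, 335 and 15.8 FPKM on days 2, 3 and 4. For this reason genes are given on all 3 days. Rescaling the libraries without RNAs that lack a poly(A) tail took 4 of the 200 named genes past the limit back within it.

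**Figure D1:**
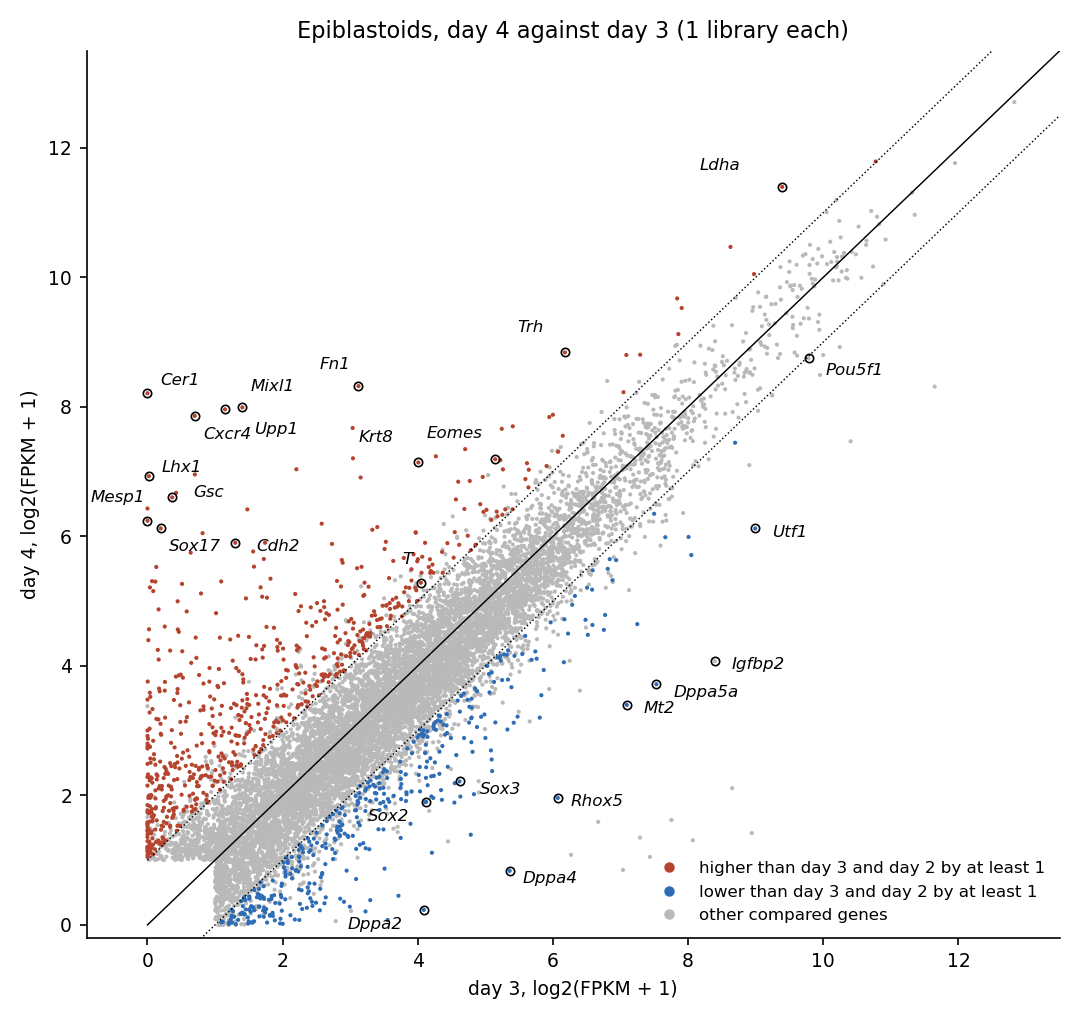
Level of each compared gene on day 3 (horizontal axis) and day 4 (vertical axis), both as log2(FPKM + 1), 1 library each. Red points are the 670 genes above both earlier days by at least 1, blue points are the 385 below both, and dotted lines mark a ratio of 1 in either direction. Cer1 lies at 0 on day 3, and Igfbp2 is grey because its day 2 level was near that of day 4.

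The genes that mark day 4 were almost silent the day before. Cer1, a secreted inhibitor of Nodal, BMP and Wnt made by anterior endoderm, was listed at 0 on both earlier days and reached 295 FPKM on day 4. It lies on chromosome 4 of mm9 (chr4:82527655-82531052, minus strand). Lhx1, a transcription factor of the streak and its anterior derivatives, was at 0.0460, 0.0143 and 121 FPKM on the 3 days (chr11:84331479-84338923, minus strand). These genes thus went from at or near 0 to the level of well expressed genes within 1 day.

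Cxcr4, the receptor of the chemokine Cxcl12 and a surface marker of definitive endoderm, was at 0.563, 0.624 and 231 FPKM (chr1:130484776-130488870, minus strand), a log2 ratio of 7.16 to day 3. Cdh2, the N-cadherin of migrating mesoderm, was at 0.819, 1.46 and 58.8 FPKM, with a log2 ratio of 4.60. Of the 19 libraries, day 4 held the highest value of Cer1, Lhx1, Cxcr4 and Cdh2. Among the 30 genes furthest above both earlier days, which include these 4, 22 were below 1 FPKM on both. The choice of these 30 used the ratios themselves, so their size is a description.

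Promoter sequences of 4 of these genes are shown because they differ widely in CpG content and, in fPSCs, in chromatin. Each is the 250 bases before the start site, from RefSeq on GRCm38.p6, 5′ to 3′ on the minus strand, which is the strand of all 4 genes. Capitals mark CpG dinucleotides, and the order is Cer1 (chr4:82885152-82885401), Mesp1 (chr7:79793591-79793840), Cxcr4 (chr1:128592300-128592549) and Lhx1 (chr11:84525535-84525784).
Cer1: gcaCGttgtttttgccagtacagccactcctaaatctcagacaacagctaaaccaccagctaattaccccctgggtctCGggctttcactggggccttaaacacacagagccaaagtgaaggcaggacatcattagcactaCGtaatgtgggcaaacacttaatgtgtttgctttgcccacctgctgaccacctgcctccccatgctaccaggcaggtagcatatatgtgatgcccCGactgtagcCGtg
Mesp1: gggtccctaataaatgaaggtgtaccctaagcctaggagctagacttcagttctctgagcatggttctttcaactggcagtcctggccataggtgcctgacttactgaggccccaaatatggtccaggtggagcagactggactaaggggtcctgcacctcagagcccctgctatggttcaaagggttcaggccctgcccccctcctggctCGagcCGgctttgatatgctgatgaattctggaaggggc
Cxcr4: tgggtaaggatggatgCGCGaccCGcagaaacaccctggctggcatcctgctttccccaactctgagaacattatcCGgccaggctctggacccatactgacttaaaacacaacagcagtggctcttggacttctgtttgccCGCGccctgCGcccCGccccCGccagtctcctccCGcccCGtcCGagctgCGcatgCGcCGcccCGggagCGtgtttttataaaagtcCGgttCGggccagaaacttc
Lhx1: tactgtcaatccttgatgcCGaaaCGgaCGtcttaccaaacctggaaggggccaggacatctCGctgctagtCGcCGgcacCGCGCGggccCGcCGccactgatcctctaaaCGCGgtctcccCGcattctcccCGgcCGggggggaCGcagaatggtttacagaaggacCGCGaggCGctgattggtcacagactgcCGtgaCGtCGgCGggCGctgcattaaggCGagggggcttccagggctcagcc
Mesp1 held 2 CpG and Cer1 5, against a median of 6 over all 32851 RefSeq windows of this length. Cxcr4 held 19 and Lhx1 26, and 90.4% of windows held fewer than Lhx1. Of 6 motifs searched on both strands, Mesp1 held the T-box site AGGTGT at 233 to 228 bases and the Tcf/Lef site CTTTGAT at 31 to 25 bases before the start. The other 3 sequences held none of the T-box site, the Tcf/Lef site, the Fox site TGTTTAC, the bicoid-type homeobox site TAATCC, the Gata site AGATAAG or the Foxh1 site AATNCACA. The T-box site was in 11.8% of all windows and the Tcf/Lef site in 3.21%, and of the windows of the 30 genes 4 of 28 (14.3%, for 20 genes with an entry) held the T-box site. These are matches of letters only.

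Genes of the primitive streak, the structure through which cells leave the epiblast, followed different courses. Of 18 genes on the list, 14 could be compared, 10 of them higher and 2 lower than on day 3. Only 2 of the 14 were compared through day 4 alone. Among the 12 at 1 FPKM or more on day 3, 8 were higher and 2 lower, against 5.09% and 8.73% of all genes at that level. For the full count of a list, the shares over all compared genes are 7.85% and 8.22%. Both pairs of shares apply to the lists below as well.

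Some streak genes were already on by day 3. T (brachyury), the T-box factor of the streak and nascent mesoderm, was at 0.753 FPKM on day 2, 15.5 on day 3 and 38.0 on day 4. Eomes, the T-box factor needed for definitive endoderm, was at 5.72, 34.4 and 145 FPKM. Fgf8, a growth factor that streak cells need to move away, was at 9.72, 36.9 and 201 FPKM. Each of these genes gained in both steps. Evx1 and Sp5, a homeobox gene of the posterior streak and a Wnt target, took the same course, to 29.3 and 72.3 FPKM. So did Tdgf1, the Nodal co-receptor Cripto, which was at 71.7, 131 and 299 FPKM, though only the second step passed 1.

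Mixl1 and Gsc, in contrast to Eomes, were low on both earlier days. Mixl1, a homeobox factor of mesendoderm, was at 1.19, 1.65 and 254 FPKM. Gsc (goosecoid), the homeobox gene of the organizer, was at 0.173, 0.288 and 96.1 FPKM. Nodal itself, the signal that starts the streak, was at 42.3, 53.9 and 31.5 FPKM, with a log2 ratio of -0.76. The lower genes were Fgf4, a growth factor of the epiblast and itself on this list, and Nkx1-2, a homeobox gene of the caudal epiblast, which was at 2.48, 12.0 and 1.70 FPKM and so was high on day 3 alone. Cdx2, a factor of posterior tissues, stayed below 1 FPKM (0.263, 0.204 and 0.146), and none of 25 Hox genes reached 1 FPKM on day 3 or day 4.

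**Figure D2:**
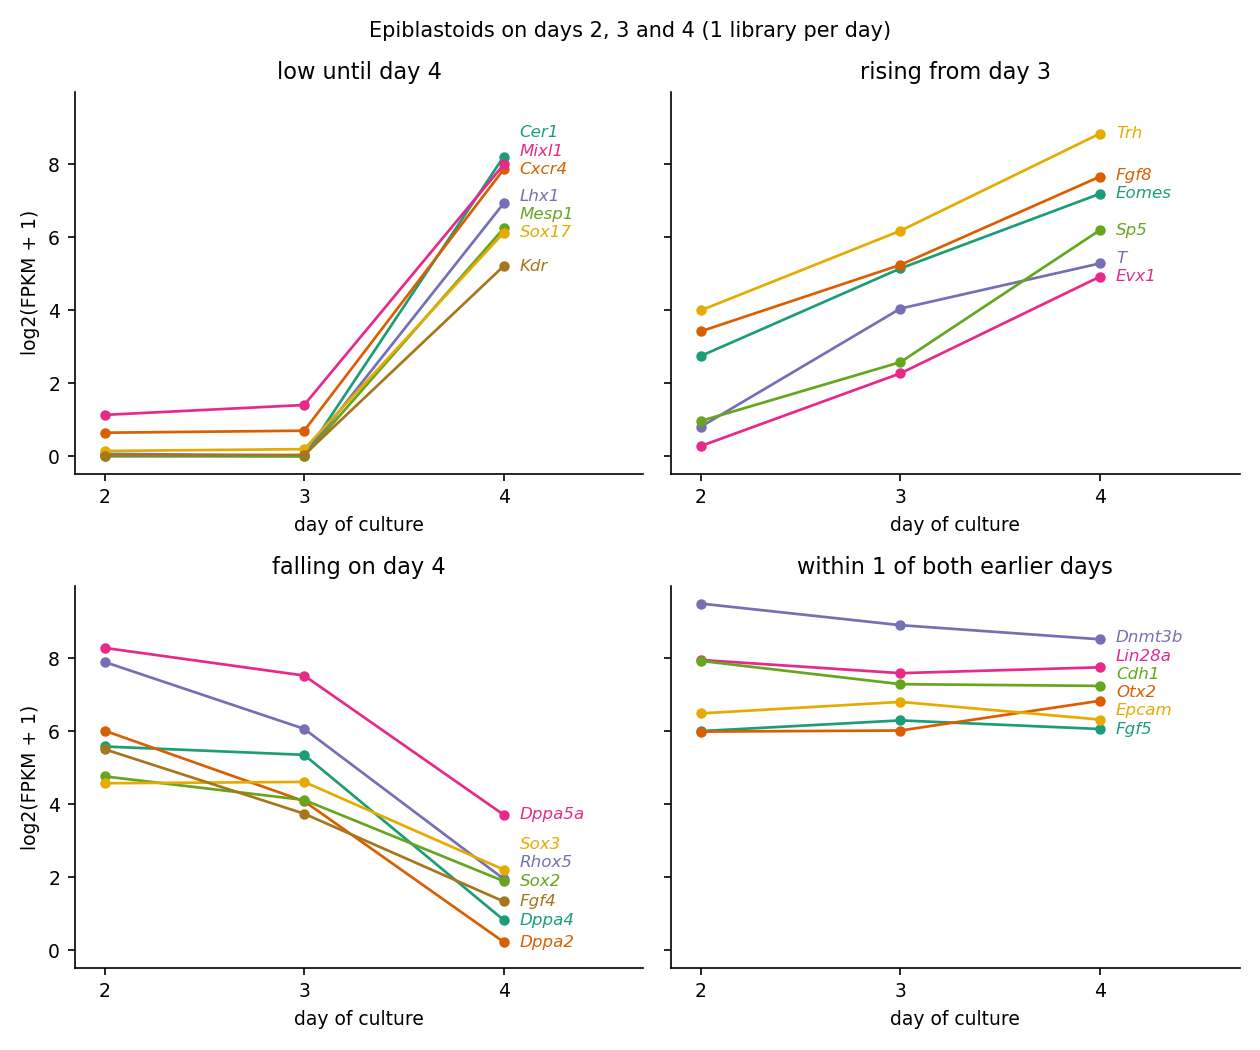
Level of single genes as log2(FPKM + 1) on days 2, 3 and 4 of Epiblastoid culture, 1 library per day, so that no error can be shown. The 4 panels hold genes that were low until day 4, genes that gained in both steps, genes lower on day 4, and genes within 1 of both earlier days, such as Fgf5.

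Definitive endoderm genes were also higher on day 4. Of 18 on the list 16 were compared, all 16 were higher and none was lower, but 14 of them were below 1 FPKM on day 3 and entered only through day 4. The 2 at 1 FPKM or more on day 3 were both higher. The median ratio of the 16 was 3.46, which that filter raises, and it was 3.13 with no filter on low values. Sox17, the HMG factor that defines the endoderm, was at 0.105, 0.145 and 68.7 FPKM. Foxa2, a forkhead factor of endoderm and node, was at 0.0982, 0.558 and 52.8 FPKM.

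Both genes were thus near 0 on both earlier days. Gata6 and Gata4, zinc finger factors of endoderm and heart, were at 38.4 and 11 FPKM on day 4 and at 0.378 or less before. Hhex, a homeobox gene of the anterior endoderm, was at 1.38, 1.10 and 20.6 FPKM. Trh, the gene of thyrotropin-releasing hormone, was already at 15.0 and 71.4 FPKM and reached 457, the highest level on this list. Shh and Pyy, made by later endoderm or node derivatives, were at 0.0269 FPKM and listed at 0 on day 4.

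Many of these genes are also used by the extraembryonic visceral endoderm. Of 18 genes of that tissue 6 were compared and 3 were higher, namely Spink1, Hnf4a and Rbp4, at 5.61, 1.76 and 3.41 FPKM on day 4. All 3 were below 1 FPKM on day 3, and none of the 3 others was higher. The list summed to 100 FPKM on day 2, 81.0 on day 3 and 81.8 on day 4, most of it Apoe, which was at 67.3 on day 4. Of the 18, 4 (Ttr, Afp, Apoa2 and Fabp1) were listed at 0 on day 4, against 5 genes on day 2 and 8 on day 3. The part of visceral endoderm in these gains was not tested.

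Mesoderm genes appeared in the same library. Of 24 on the list 17 were compared, 16 were higher and 1 was lower, but 14 were below 1 FPKM on day 3 and entered only through day 4. Among the 3 at 1 FPKM or more on day 3, 2 were higher and 1 lower. Mesp1, the bHLH factor of the first heart and head mesoderm, stood at 0.0216 FPKM on day 2 and 74.7 on day 4 and was listed at 0 between them. Kdr, the VEGF receptor of blood vessel and blood progenitors, was at 0.00918, 0.0256 and 36.05 FPKM. Pdgfra, a growth factor receptor of mesoderm, was at 0.0239, 0.00888 and 20.1 FPKM. None of these reached 1 FPKM on either earlier day.

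Aplnr, the apelin receptor of migrating mesoderm, was at 0.0149, 0.0605 and 34.6 FPKM. Myl7, the atrial light chain of heart muscle myosin and no member of the list, was at 2.42, 0.626 and 123 FPKM. Hand1 and Hand2, bHLH factors of lateral and heart mesoderm, stood at 16.1 and 4.68 FPKM on day 4. Tbx6 and Msgn1, factors of paraxial mesoderm, stood at 6.74 and 0.316. The gene that was lower was Tcf15, a bHLH factor of somites that pluripotent cells also express, at 9.14, 5.94 and 2.40 FPKM, with a log2 ratio of -1.03 that did not pass after both libraries were scaled to the same upper quartile.

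Blood genes did not accompany Kdr. Of 9 hematopoietic markers with values, 2 were compared and neither passed 1, and the list summed to 7.85, 6.98 and 4.26 FPKM on the 3 days. Ptprc, Tyrobp, Lyz2 and Hbb-bh1 were listed at 0 on day 4. Hand1 is also a trophoblast gene. The 12 trophoblast markers summed to 4.50, 2.99 and 29.1 FPKM, and 5 were compared, of which 4 were higher (Hand1, Tfap2c, Krt7 and Plac1). All 5 were below 1 FPKM on day 3. Their median ratio was 2.03, and that of the list was 0.17 with no filter on low values. The other 7 of the 12 reached 1 FPKM on neither day 3 nor day 4. Cdx2 and Elf5, also genes of that lineage, were at 0.146 and 0.128 FPKM on day 4, and Prl3d1 and Tpbpa were listed at 0. The part of trophoblast in the level of Hand1 was not tested. In bulk RNA, fewer cells of a type and less RNA per cell cannot be told apart, so it is not known whether endoderm and mesoderm genes were on in the same cells.

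Neural and surface ectoderm genes took no such course. Of 24 on the list 6 were compared, with Irx3 and Grhl3 higher (to 4.45 and 3.42 FPKM) and Sox3 lower, and the list summed to 44.8, 46.8 and 35.5 FPKM. Sox1 and Pax6, early factors of the neural plate, were at 0.0114 FPKM and 0.000243 on day 4.

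Some secreted inhibitors were among the strongest gains. Of 16 antagonists of Nodal, BMP and Wnt 12 were compared, 9 were higher and none was lower, with 6 of the 12 below 1 FPKM on day 3. Among the 6 at 1 FPKM or more on day 3, 3 were higher and none lower. Lefty1 and Lefty2, inhibitors and targets of Nodal signaling, had been present before. Lefty1 was at 23.9, 25 and 162 FPKM. Lefty2 was at 7.48, 7.23 and 147 FPKM.

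The Wnt inhibitor Dkk1 was at 0.121, 0.0946 and 45.1 FPKM. Frzb and Sfrp1, which bind Wnt ligands, were at 22.03 and 27.8 FPKM on day 4, from 0.380 and 3.71 on day 3. The BMP inhibitor Chrd (chordin) was at 0.596, 0.776 and 12.2 FPKM, while Nog (noggin) reached 0.739. Fst, which binds Activin, was at 8.52, 25 and 13.3 FPKM and Sfrp2 at 20.0 on day 3 and 10.7 on day 4, so that not every antagonist gained.

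BMP ligands and the genes that report BMP signaling were higher too. Of 13 on the list 11 were compared, 8 higher and 2 lower, and among the 8 at 1 FPKM or more on day 3 these counts were 5 and 2. Bmp4 and Bmp2, the ligands, were at 10.1 and 7.17 FPKM on day 4, from 0.312 and 0.0216. Id1, a direct target, was at 8.65, 2.30 and 49.2 FPKM, with a log2 ratio of 3.93 to day 3 and 2.38 to day 2. Msx1 and Msx2, homeobox targets, were at 32.0 and 8.07 FPKM on day 4. The lower genes were Id2 and the inhibitory Smad7, with ratios of -1.03 and -1.01. Both ratios lie at the limit, and neither passed it after scaling to the same upper quartile.

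**Figure D3:**
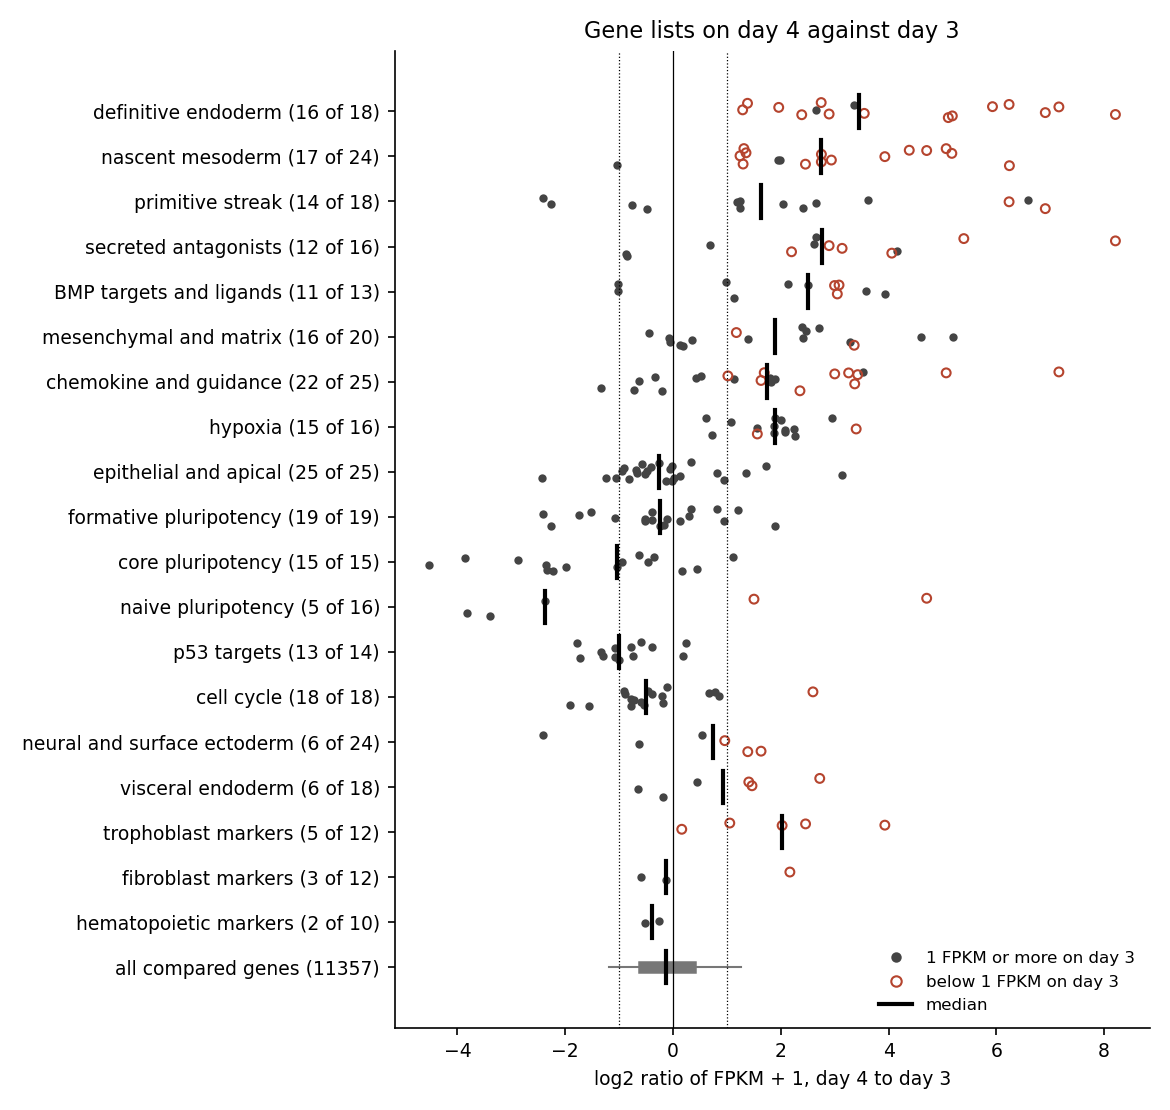
Log2 ratio of FPKM + 1 of day 4 to day 3 for each compared gene of 19 gene lists, with the number compared and the number listed beside each name. Open red circles are genes below 1 FPKM on day 3, which could enter only by being higher on day 4, thick bars are medians, and the lowest line shows the median, the quartiles and the 5th to 95th percentile of all compared genes (-1.18 to 1.27).

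Genes of the mesenchymal state and of matrix were in part higher. Of 20 mesenchymal and matrix genes 16 were compared, 10 were higher and none was lower. Among the 14 at 1 FPKM or more on day 3, 8 were higher and none lower. Fn1 (fibronectin), the matrix protein on which mesoderm migrates, was at 12.0, 7.71 and 319 FPKM, with a log2 ratio of 5.20. Its receptor subunit Itga5 was at 6.69, 5.11 and 31.0 FPKM. Fn1 was thus the most abundant transcript of the list on day 4.

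Mmp14, a membrane protease that cuts matrix, was at 2.87, 4.69 and 30.3 FPKM. Snai1, which represses E-cadherin, was at 0.750, 2.41 and 32.2 FPKM, and its paralog Snai2 was at 0.0410 on day 4. Zeb1, another repressor of E-cadherin, reached 0.620 FPKM. The basement membrane collagens Col4a1 and Col4a2 were at 44.5 and 23.1 FPKM on day 4, from 7.58 and 2.66 on day 3. The 12 fibroblast markers summed to 10.4, 8.403 and 12.7 FPKM, of which Pdgfrb made up 5.10 on day 4, and Fap and Lum were listed at 0.

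All 25 epithelial genes were compared, 3 were higher, 3 were lower and 19 stayed within 1, with a median of -0.26. Of all compared genes 16.1% were past 1 in either direction. Cdh1 (E-cadherin), the adhesion protein of epithelia, was at 243, 156 and 151 FPKM, with a log2 ratio of -0.05 to day 3. Epcam, an epithelial adhesion protein, was at 89.2, 111 and 79.2 FPKM. Both were therefore close to their day 3 level in the library in which Cdh2 and Snai1 were high. The lower genes included the tight junction gene Cldn4, at 13.7, 19.5 and 2.81 FPKM. The higher ones were Podxl and the keratins Krt8 and Krt18, filament proteins of simple epithelia, with Krt8 at 11.4, 15.1 and 140 FPKM. Podxl did not pass against day 2.

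Receptors and ligands that guide cells were examined beside Cxcr4. Of 25 on the list 22 were compared, 15 were higher and 1 was lower, with 10 of the 22 below 1 FPKM on day 3. Among the 12 at 1 FPKM or more on day 3, 5 were higher and 1 lower. Cxcl12, the ligand of Cxcr4, was the lower one, at 10.7, 5.97 and 1.75 FPKM. Ackr3, a decoy receptor for the same ligand, reached 7.01 FPKM on day 4 and had been listed at 0 the day before. The ligand thus fell in the library in which its receptors gained.

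Efna3 and Efnb1, ephrins that set cell boundaries, were at 39.7 and 11.2 FPKM on day 4, from 2.53 and 0.133 on day 3. Ntn1 (netrin) and Nrp1 (neuropilin) were at 13.6 and 9.08 FPKM, from 0.406 and 0.0525. The apelin receptor ligand Apela did not change past 1, at 6.40, 6.83 and 5.80 FPKM.

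The losses fell on pluripotency genes, but on some and not on others. Of the 5 markers of the pluripotent epiblast, Otx2, Fgf5 and Dnmt3b stayed within 1 of day 3, Pou5f1 was just past the limit and Sox2 was clearly lower. The other 4 were at 66.0 FPKM or more on day 4. Of the markers of the label, 4 of 5 were thus well expressed on day 4, and Sox2 was lower.

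Sox2, the HMG factor that partners Pou5f1, was at 26.3, 16.4 and 2.73 FPKM, with a log2 ratio of -2.22 to day 3. Day 4 was the lowest of the 19 libraries for Sox2, the next lowest being day 3. Its relative Sox3 was at 22.9, 23.6 and 3.64 FPKM, and Pou3f1 (Oct6), a POU factor of the epiblast and of neural progenitors, at 85.6, 43.5 and 8.29. Fgf4, a common target of Sox2 and Pou5f1, was at 44.7, 12.4 and 1.54 FPKM, also the lowest of the 19 libraries. Utf1, another such target, was at 473, 509 and 68.6 FPKM.

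Pou5f1 (Oct4), the POU factor of pluripotency, was at 552, 880 and 429 FPKM, with a log2 ratio of -1.03 to day 3 and -0.36 to day 2. It thus passed the limit against day 3 only, and it no longer passed after both libraries were scaled to the same upper quartile. Nanog, a homeobox factor of pluripotency, was at 13.9, 44.9 and 34.8 FPKM. Otx2, the homeobox factor of the formative epiblast, was at 62.8, 64.2 and 114 FPKM, and Fgf5, its usual companion marker, at 63.4, 78.0 and 66.0. Lin28a, which blocks the maturation of let-7, was at 248, 193 and 215 FPKM. In all, 8 of 15 core genes were lower and 1 (Sall4) was higher than on day 3, and of 19 formative genes 5 were lower and 2 (Car4 and Tead2) higher, with no gene of either list below 1 FPKM on day 3. Sall4 and Tead2 did not pass against day 2.

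Among the 30 genes furthest below both days were several known from early embryos and the germ line, chosen by their ratios. Dppa4 and Dppa2, partner proteins of early embryonic and germ cell chromatin, are neighbours on chromosome 16. Dppa4 was at 47.1, 40.0 and 0.782 FPKM, with a log2 ratio of -4.53. Dppa2 was at 64.0, 16 and 0.174 FPKM, a ratio of -3.86. Dppa4 was thus kept until day 3 and Dppa2 had begun to fall by then.

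Rhox5, a homeobox gene of the X chromosome, was at 239, 66.3 and 2.89 FPKM. Dppa5a, an RNA-binding protein of pluripotent cells, was at 312, 184 and 12.2 FPKM. Mael, a piRNA pathway gene of the germ line, was at 15.3, 6.97 and 0.215 FPKM, and Ddx4 (Vasa), an RNA helicase of germ cells, at 4.21, 4.31 and 0.330. The ribosomal protein paralogs Rpl10l and Rpl39l, known from testis, were at 0.0535 and 0.260 FPKM on day 4, from 10.7 and 5.14 on day 3, and as retrogene-like copies they may share reads with Rpl10 and Rpl39. On the germ cell list of 10 genes 8 were compared, 4 of them higher and 2 lower, with a median of 1.15. Of the 8, 2 were below 1 FPKM on day 3, and among the other 6, 2 were higher and 2 lower. With no filter on low values the median was -0.063. Prdm1 and Kit reached 6.17 and 18.8 FPKM on day 4.

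The DNA methyltransferases parted. Dnmt3l, the cofactor without catalytic activity, was at 29.7, 3.00 and 0.0113 FPKM. Dnmt3a was at 56.0, 52.4 and 17.7 FPKM, with a log2 ratio of -1.52 to day 3. Dnmt3b was at 724, 481 and 367 FPKM, and its ratio of -0.39 stayed within the limit. Of 16 naive genes only 5 could be compared, because most were off before. Of these, 3 (Dppa5a, Tdh and Zfp42) were lower and 2 were higher, and both higher genes were below 1 FPKM on day 3. Tbx3, 1 of these 2 and a T-box factor of naive cells and of mesoderm, was at 0.137, 0.120 and 28.3 FPKM.

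Across the 19 libraries the genes gained on day 4 divided by where else they were expressed. Of the 670 genes above both earlier days, 275 had their highest level of all libraries on day 4, and of the 30 furthest above, 23 did. Their median level was 56.1 FPKM on day 4, 15.6 in the 46C line of fPSCs and between 0.0753 and 7.92 in the other 17 libraries. The 46C library, with 1 sample, was the next highest for 16 of the 30.

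Cer1 was at 203 FPKM in the 46C library, 124 and 56.4 in the 2 libraries of fPSCs from epiblasts and 11.3 ± 9.26 in fPSCs at passages 10 to 30 (SD, n = 3 passages of 1 line). In EpiSCs it was at 1.95 ± 0.174 (SD, n = 2), so Epiblastoids on day 4 were above all other libraries. Mesp1, Kdr and Pdgfra reached at most 2.04, 1.44 and 1.47 FPKM in any other library. Cer1 was thus also expressed in fPSC lines, and these 3 mesoderm genes were not detected there at comparable levels. Fn1 was at 263 ± 79.6 FPKM in EpiSCs (SD, n = 2), whose higher library matched day 4. Sox2 was at 25.8 ± 0.797 in fPSCs at passages 10 to 30 (SD, n = 3) and 71.6 ± 13.1 in EpiSCs (SD, n = 2).

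**Figure D4:**
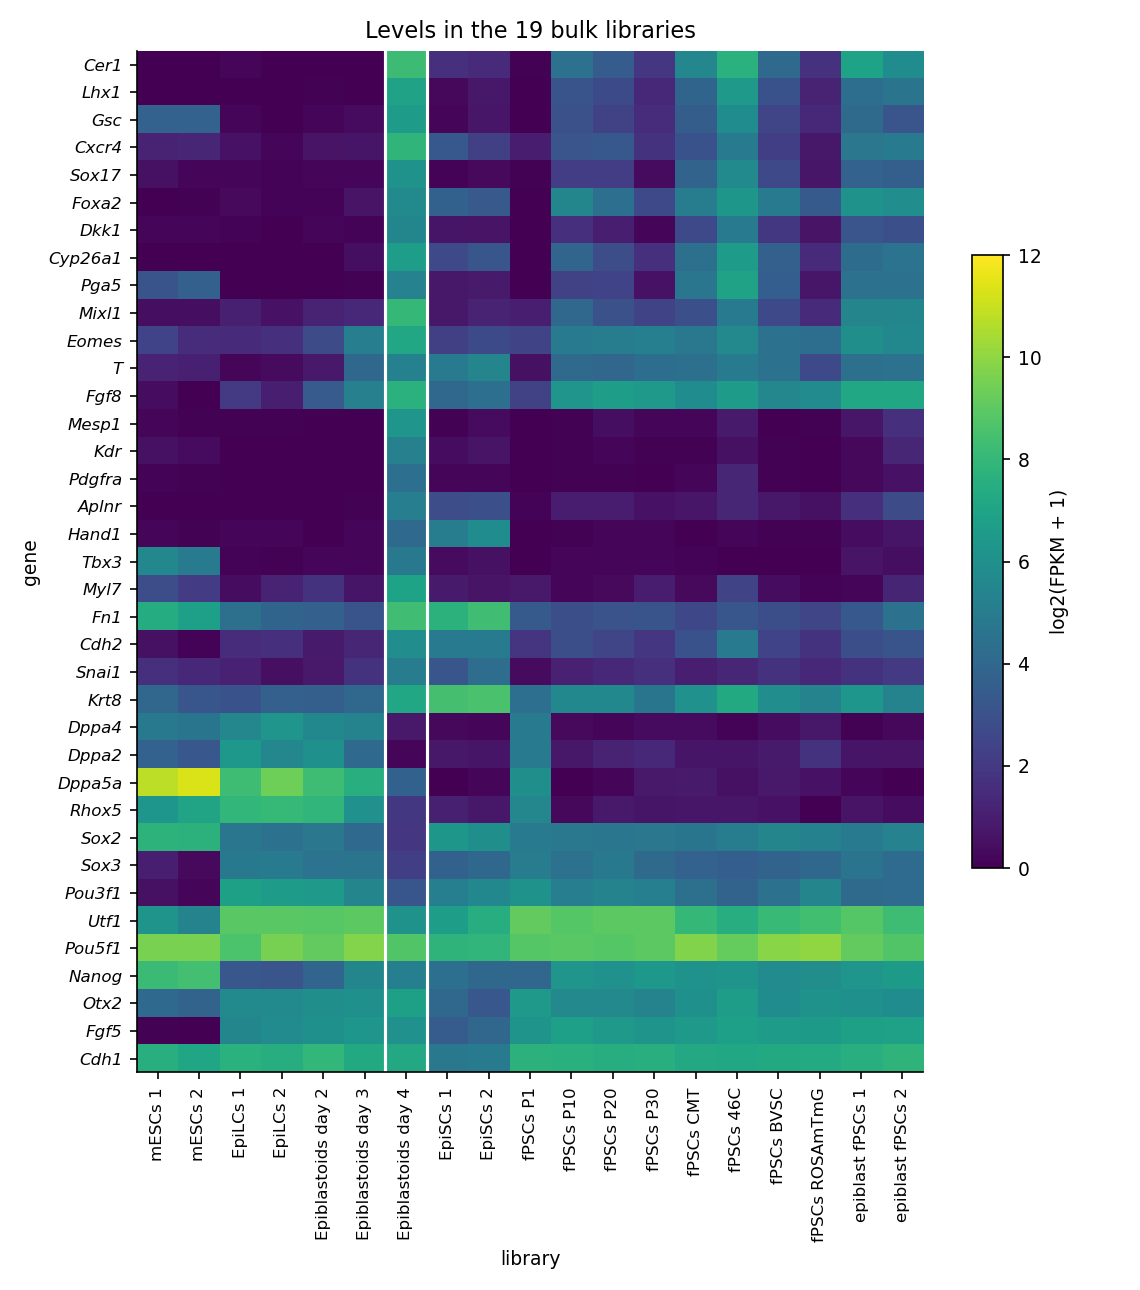
Level of 37 genes (rows) in each of the 19 bulk libraries (columns) as log2(FPKM + 1), with Epiblastoids on day 4 between white lines. Cer1, Lhx1 and Gsc were also present in fPSCs, most in the 46C line, while Mesp1, Kdr and Pdgfra were high on day 4 alone and Sox2 was lowest there.

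Chromatin at these promoters was read in fPSCs at passage 10, which are other cells than the Epiblastoids, kept with XAV939. H3K4me3 marks active or poised promoters, H3K27me3 is the mark of Polycomb repression, and both are RPKM averaged within 2000 bp of the start site. DNA methylation is the mean within 1000 bp. The choice of genes by RNA in Epiblastoids did not use these data, but CpG content, to which all 3 readouts are known to relate, was not held equal between classes. Of 17686 promoters, 29.9% had H3K27me3 above 2 times the median of all promoters, that is above 0.708 RPKM, and 37.8% were methylated above 50%.

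Promoters of genes that came on from below 1 FPKM in Epiblastoids carried more H3K27me3 in fPSCs than those of genes that stayed below it. Of 261 promoters of genes below 1 FPKM on day 3 and above both earlier days on day 4, 195 (74.7%) were over that limit. The share was 39.8% for the 7757 promoters of genes below 1 FPKM on both day 3 and day 4, and 19.04% for the 8367 of genes within 1 of day 3. The median was 1.72 RPKM in the genes that came on against 0.531 in those that stayed off. DNA methylation above 50% was found at 29.9% of the former and 72.7% of the latter, and the median of H3K4me3 was 2.39 RPKM against 0.434. Each mark came from 1 file, so there is no spread between replicates. The classes rest on RNA in Epiblastoids, and fPSCs expressed some of the genes that came on, such as Cer1. Of the 30 genes furthest above both days, 6 were at 10 FPKM or more in fPSCs at passage 10, with a median of 3.16 over the 30.

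Among the 30 genes furthest above both days, 26 promoters were over the H3K27me3 limit, against 22.2% of promoters of all compared genes. The median methylation of the 30 was 5.1%, against 18.5% over the compared genes. Most compared genes were already expressed, while 23 of the 30 were below 1 FPKM on day 3. For genes below 1 FPKM on day 3 and at 10 FPKM or more on day 4, 44 of 52 promoters (84.6%) were over the limit. Their median methylation was 8.6%, so the 30 were near that class. Methylation was below 10% at 18 of the 30, a share that was not computed for all promoters. Lhx1 had 3.61 RPKM of H3K27me3, 7.65 of H3K4me3 and 0.625% methylation, and Sox17, Gsc and Cxcr4 were alike, at 4.48, 3.45 and 1.82 RPKM of H3K27me3 with 1.13%, 2.56% and 2.67% methylation. Cer1 was unlike them, with 0.386 RPKM of H3K27me3 and 85.5% methylation, and Lefty2 had 0.289 RPKM and 86.3%. Lefty1 was methylated at 15.3%. Cer1 held few CpG in the printed sequence and Lhx1 many, while Mesp1 had 3.50 RPKM of H3K27me3 and 39.8% methylation at a promoter with 2 CpG.

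At the promoters of the 344 genes below both days, 34.6% were over the H3K27me3 limit, against 74.7% of the genes that came on. The 344 genes were all at 1 FPKM or more on day 3, so these 2 classes also differ in starting level. The share was 45.2% for the 332 genes at that level and above both days, and 19.6% for all genes at that level. Methylation above 50% was found at 31.1% of the 344, close to the 29.9% of the genes that came on. It was found at 9.94% of the 332 and at 9.24% of genes within 1 of day 3. Of the 28 promoters of the 30 genes furthest below both days 12 were methylated above 50% in fPSCs, among them Dppa2, Dppa4, Dppa5a, Gdf3 and Mael. Sox2, Sox3, Utf1 and Pou3f1 were not among the methylated ones. Dppa2, Dppa4, Dppa5a and Rhox5 were themselves at most at 2.37 FPKM in fPSCs after the first passage, so their RNA was low in these cells too. The promoter of Rhox5 was not among those read.

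**Figure D5:**
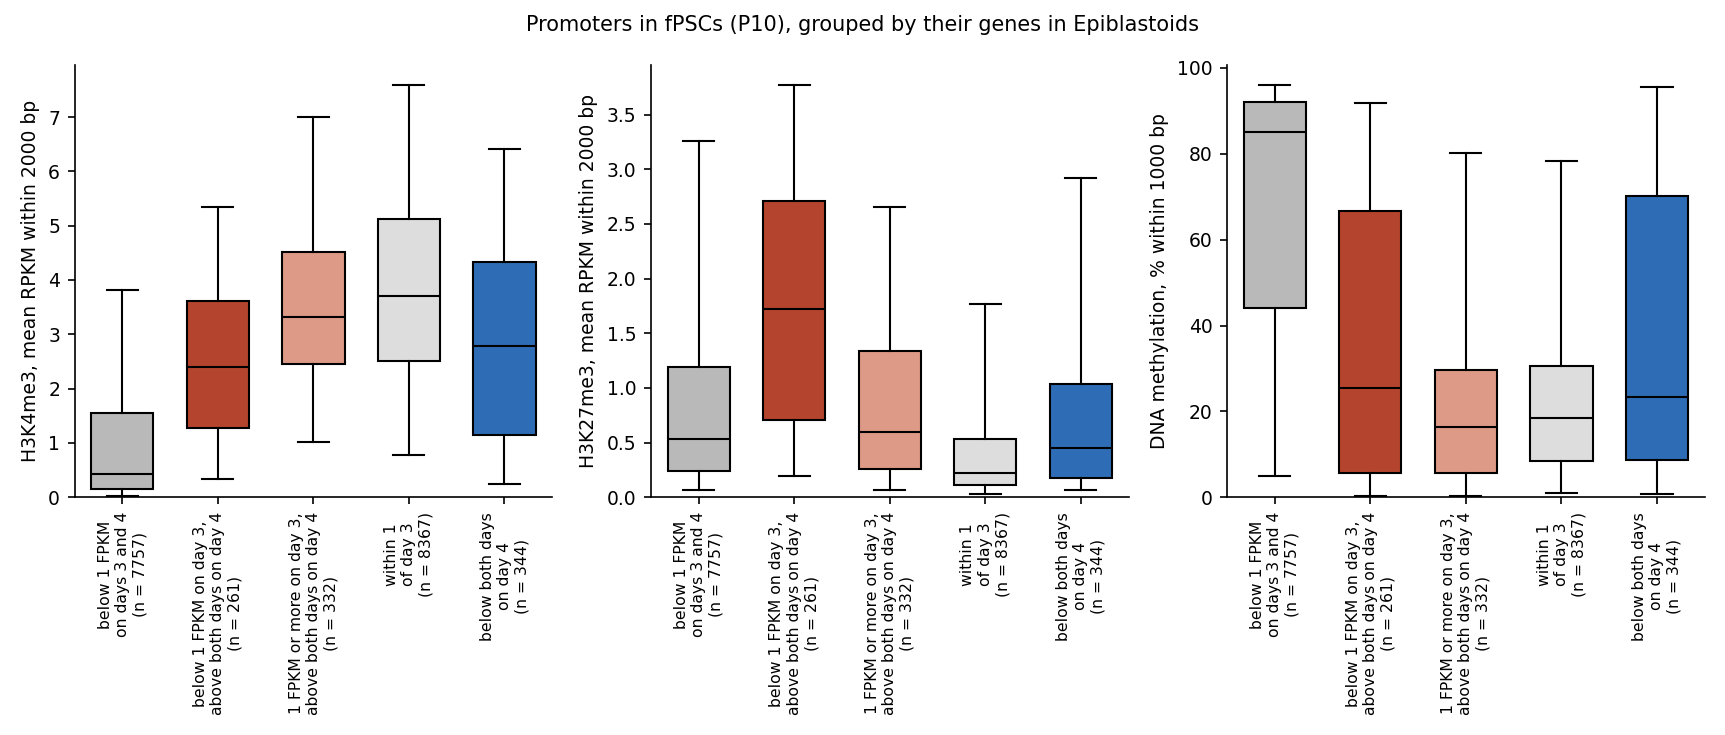
H3K4me3 and H3K27me3 (mean RPKM within 2000 bp of the start site) and DNA methylation (percent within 1000 bp) in fPSCs at passage 10, for promoters grouped by the course of their gene in Epiblastoids. Boxes are quartiles with the median, and whiskers reach the 5th and 95th percentile, and of the 5 classes drawn the 261 genes that came on from below 1 FPKM had the highest median of H3K27me3, 1.72 RPKM.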

How the data were processed

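Bulk RNA-seq was made of 19 libraries, of which Epiblastoids on days 2, 3 and 4 are 1 each. The authors trimmed adapters with cutadapt 1.11, aligned reads with TopHat2 2.1.1 to mouse cDNA (mm9) and deposited FPKM from Cufflinks 2.1.1. No read counts were used here, and library depth is unknown. FPKM summed to between 307394 and 414727 per library. Of 23608 entries, 4 whose names are listed 2 times were left out.

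Ratios were computed as log2(FPKM + 1), which understates the change of low genes, with Python 3.11.15, numpy 2.4.6, pandas 2.3.3 and scipy 1.17.1, and the step that calls them was tested on simulated data. Plots used matplotlib 3.10.9. No test was made, since no day has a replicate. Groups come from the sample titles.

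For fPSCs at passage 10, the authors deposited ChIP-seq as RPKM in bins of 100 bp (Trim Galore, Bowtie2 2.2.2, duplicates removed) and bisulfite sequencing as a fraction (0 to 1) methylated per 100 bp window (BS-Seeker2), all on mm9. Whether a file holds 1 replicate or both is not stated, and coverage of the methylation windows was not used here. They were joined to 17686 promoters by the mm9 start sites. As a check, H3K4me3 averaged 3.38 RPKM within 500 bp of start sites and 0.509 at a point 20000 bp away, H3K27me3 0.526 and 0.465, and methylation 0.355 and 0.863 as fractions. Promoter sequences are from RefSeq (GRCm38.p6).

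Genes are named if they are Cer1, Lhx1, Cxcr4 or Cdh2, if they are on a list, if they are among the 30 with the highest or lowest ratio to day 3 at 10 FPKM or more, or among the 30 furthest above or below both days, ranked by the ratio nearer to 0. RNAs without a poly(A) tail by name were left out of the ranking to day 3. The 23 lists hold genes of primitive streak, definitive and visceral endoderm, nascent mesoderm, ectoderm, antagonists, BMP, mesenchymal, epithelial and guidance genes, naive, core and formative pluripotency, germ cells, Hox, hypoxia, p53, the integrated stress response, immediate early genes, cell cycle, fibroblast, hematopoietic and trophoblast markers. The genes and lists were chosen with earlier results of these data known. The classes high or low on day 3 alone, and AF357425 and Zfp11, were chosen after their values were seen. Alternatives were another pseudocount, scaling, filter, limit, reference day and promoter window.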

Additional observations from a re-analysis of the deposited data

How the results depend on the processing

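No paired analysis was possible because each day has 1 library and no test was made, and leaving out a replicate was not possible for the same reason. The limits of these data are that no day was repeated, that FPKM carry no depth, and that low genes move most with the pseudocount. With a pseudocount of 0.1 FPKM in place of 1, 1442 genes were lower than on day 3 (934 before), 996 lower than on day 2 and 719 below both, and the libraries of 1 group were apart for 955 genes in mESCs, 910 in EpiLCs and 436 in EpiSCs. With a limit of 2 in place of 1, 229 genes were higher and 90 lower than on day 3, 257 and 103 against day 2, 193 above and 40 below both days, and 29, 16 and 8 genes were apart between the libraries of mESCs, EpiLCs and EpiSCs. Lists with a median of -1 or less numbered 3 before, 1 after upper-quartile scaling and 1 with no filter on low values. With no such filter the median of the germ cell list was -0.063 in place of 1.15. Scaling to the same upper quartile took 10 of 200 named genes back within 1, Pou5f1 and Smad7 among them, and day 2 as the reference took 28. None of these 200 ratios past 1 changed sign under any of the 4 alternatives run on them. Ratios of named genes within 1 were not checked for a change of sign. With promoter windows of 5000 bp for ChIP-seq and 500 bp for methylation, H3K27me3 over the limit was found at 25.8% of all promoters, 34.7% of those off on both days and 28.5% of those below both days, and methylation above 50% at 34.8% and 68.8% of the first 2 classes. The share for genes that came on moved less, from 74.7% to 71.7%.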

Other observations

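Genes that respond to low oxygen were higher on day 4. Of 16 on the list 15 were compared, 13 were higher and none lower, against 7.85% and 8.22% of all compared genes. Among the 13 at 1 FPKM or more on day 3, 11 were higher, against 5.09% of all genes at that level. Ldha, which makes lactate from pyruvate, was at 705, 671 and 2696 FPKM on days 2, 3 and 4. The glucose transporter genes Slc2a1 and Slc2a3 were at 234 and 115 FPKM on day 4, from 63.0 and 26.3 on day 3. Vegfa, the ligand of Kdr, was at 1.82, 2.94 and 10.6 FPKM. Car9, often used to report hypoxia, stayed below 1 FPKM (0.235).

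Targets of p53 were in part lower. Of 14 on the list 13 were compared, 7 were lower and none was higher, with a median of -1.005. The median was -0.91 after scaling to the same upper quartile, where Aen, Bbc3 and Eda2r came back within the limit, and -0.93 against day 2, where Aen and Bbc3 did not pass. Mdm2, the ligase that degrades p53, was at 32.4, 40.8 and 11.7 FPKM, and Phlda3, an inhibitor of Akt, was at 82.8, 88.4 and 25.2. Cdkn1a (p21) was at 28.5, 33.7 and 22.1 FPKM, within the limit. Of 18 cell cycle genes 1 (Ccnd2) was higher and 2 (Pcna and Cdkn2a) were lower, with Pcna at 101, 242 and 81.2 FPKM. These shares are near those of all compared genes (7.85% higher and 8.22% lower). Of 14 integrated stress response genes 3 (Atf4, Slc7a11 and Vldlr) were higher, and of the 12 immediate early genes compared 2 were higher and 3 lower. Atf4 did not pass against day 2.

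Metallothioneins, which bind zinc and copper, were among the strongest losses. Mt1 was at 178, 151 and 24.02 FPKM and Mt2 at 193, 136 and 9.54, both the lowest of the 19 libraries on day 4. The glutathione gene Gclm and the quinone reductase Nqo1 were at 8.20 and 3.23 FPKM on day 4, from 54.9 and 19.3 on day 3, while the cystine transporter Slc7a11 was at 0.920, 1.13 and 38.5 FPKM.

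Some ratios to day 3 depended on a day 3 level that differed from day 2. Upp1, a uridine phosphorylase, was at 8.20, 1.22 and 248 FPKM, with a log2 ratio of 6.81 to day 3 and 4.76 to day 2. Ifitm1, an interferon-induced membrane protein, was at 11.6, 1.78 and 84.5 FPKM, with ratios of 4.94 and 2.77. The neurofilament genes Nefl and Nefm were at 83.4 and 28.9 FPKM on day 3 and at 11.3 and 3.66 on day 4, near day 2 (16.8 and 7.04).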
